A study of Mus musculus with 12 samples.

Results

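Periportal amino acid and urea genes were described in the livers of 12 adult male mice by the diet of their mothers and by whether a liver weight had been recorded for the mouse. The 9 genes described were chosen by symbol, 9 of the 52636 genes in the count tables, and all 9 passed the filter of a mean count of at least 12 that left 12453 genes for testing. They are 4 enzymes of the urea cycle (Cps1, Otc, Ass1 and Asl), 4 enzymes that release nitrogen from amino acids (Sds, Sdsl, Gls2 and Hal), and Cdh1, which encodes the adhesion molecule E-cadherin. The mice were C57Bl/6J males of the F1 generation, killed at 16 weeks of age. Mothers were fed a vitamin D deficient (VDD) diet, with calcium gluconate added, or a nutrient-matched vitamin D sufficient (VDS) diet before mating and through pregnancy, fathers ate a control diet, and after delivery all mothers and all offspring ate the VDS diet. The exposure of the 6 VDD-F1 mice was therefore maternal, and both groups had eaten the same diet since weaning. RNA came from bulk tissue of the left lateral lobe of the liver, with 1 library per mouse. The litter of each mouse was not given in the sources used here, so that littermates cannot be told apart from independent animals and p-values measure the spread between these mice.

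The hepatocytes of a liver lobule divide their work along the flow of blood. Those around the portal vein receive blood rich in oxygen and amino acids and take apart amino acids, and they turn the ammonia released into urea through the urea cycle. Those around the central vein take up the ammonia that is left and fix it as glutamine with glutamine synthetase, the product of Glul. E-cadherin is found on periportal hepatocytes and on the cells that line the bile ducts. In bulk tissue, fewer cells of a type and less RNA per cell cannot be told apart.

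Each library held between 25897868 and 36403413 fragments, of which 14275793 to 20815066 fell on genes. Between 2.52% and 11.1% of the fragments lay on no gene annotated on the counted strand, with the highest share in VDS6. Hepatocyte markers matched the labelled tissue, with a summed level of 82458 to 113961 CPM (counts of a gene scaled to a common library size after TMM normalization) over Alb, Ttr, Apoa1, Apob and Fgb in every liver. A liver weight had been recorded for 7 mice (VDS3 to VDS6, VDD4 to VDD6) and not for the other 5 (VDD1 to VDD3, VDS1 and VDS2). This division came from a picture in the study's supplement and not from the sample labels, and what else differed between these sets of mice is not given. In 1 VDD-F1 mouse without a recorded weight, VDD2, Glul stood at 392 CPM, against 1309 and 1568 CPM in the other 2 VDD-F1 mice without a recorded weight and 261 to 313 CPM in the 3 with one.

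The RefSeq table at hand gave upstream sequence for 3 of the 9 genes, Otc, Ass1 and Hal. All 3 are shown, so that the start regions of a gene called between the diets in 1 set of mice (Ass1), of a gene called between the sets (Hal) and of a gene called in neither (Otc) can be read side by side. Each sequence ends at the base before the annotated start of the gene, on the plus strand of GRCm38.p6, and capitals mark the motifs found. The Otc window lies at chrX:10252055-10252304, the Ass1 window at chr2:31470020-31470206 and the Hal window at chr10:93488518-93488767.
Otc: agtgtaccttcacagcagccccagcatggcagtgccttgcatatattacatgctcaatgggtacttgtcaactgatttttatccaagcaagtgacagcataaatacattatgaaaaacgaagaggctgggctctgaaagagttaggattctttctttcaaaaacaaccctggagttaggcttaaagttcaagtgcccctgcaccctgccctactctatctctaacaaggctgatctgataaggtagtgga
Ass1: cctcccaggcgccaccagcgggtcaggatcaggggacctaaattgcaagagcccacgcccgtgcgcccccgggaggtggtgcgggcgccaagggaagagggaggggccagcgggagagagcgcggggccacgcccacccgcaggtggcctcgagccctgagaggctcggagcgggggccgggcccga
Hal: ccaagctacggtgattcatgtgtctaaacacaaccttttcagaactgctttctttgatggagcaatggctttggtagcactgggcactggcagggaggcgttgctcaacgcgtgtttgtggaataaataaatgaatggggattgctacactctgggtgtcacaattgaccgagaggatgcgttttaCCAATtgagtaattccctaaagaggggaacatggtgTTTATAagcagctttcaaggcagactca
The Ass1 window holds 187 bases and the other 2 windows 250 each. G and C made up 75.4% of the Ass1 window, 43.6% of the Otc window and 45.6% of the Hal window, against a median of 52.4% over 32851 windows of 250 bases. Of 8 motifs searched on both strands, 2 were found, both in Hal: CCAAT, at 64 to 60 bases before the end of the window, and TATAAA, read on the minus strand at 28 to 23 bases before it. CCAAT stands in 33.8% of all windows and TATAAA in 12.4%. The other motifs searched were the cAMP response element TGACGTCA (1.55% of all windows), the palindrome TTGCGCAA bound by C/EBP factors (0.164%), the glucocorticoid receptor half-site AGAACA (16.1%), the HNF4 site CAAAGTCCA (0.384%), the E-box CACGTG (6.02%) and the GC box GGGCGG (32.7%). None of these 6 stood in the 3 windows. These are matches of letters in short windows.

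The genes lie on 6 chromosomes. In GRCm38, Cps1 (ENSMUSG00000025991.8) lies at chr1:67123026-67231259, Ass1 (ENSMUSG00000076441.9) at chr2:31470207-31520672, Asl (ENSMUSG00000025533.15) at chr5:130011258-130029247 and Otc (ENSMUSG00000031173.13) at chrX:10252305-10321024. Hal (ENSMUSG00000020017.14) lies at chr10:93488768-93519304, Gls2 (ENSMUSG00000044005.13) at chr10:128194457-128210004 and Cdh1 (ENSMUSG00000000303.12) at chr8:106603351-106670246. Sds (ENSMUSG00000029597.14, chr5:120476526-120483932, plus strand) and Sdsl (ENSMUSG00000029596.13, chr5:120458186-120472810, minus strand) are neighbours that point away from each other, with starts 3716 bases apart. Sds overlaps Gm15690 and Plbd2, and Gls2 overlaps Spryd4, each on the opposite strand. Fragments were counted by strand, and the reverse-strand count that was used held 92.7% to 95.8% of the stranded counts of each library.

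In the VDS-F1 livers the genes spanned a wide range of levels. Compared per kilobase of exon, Ass1 (1256 ± 105 CPM per kb, SD, n = 6) and Cps1 (1043 ± 51.8) stood highest, and their ranges over the mice overlapped. Ass1 encodes argininosuccinate synthase, and Cps1 encodes carbamoyl phosphate synthetase, the mitochondrial enzyme through which ammonia enters the cycle. Their ranges lay above that of every other gene of the 9. Gls2 (104 ± 19.0), Hal (94.4 ± 23.9), Asl (91.4 ± 8.25), Sds (74.2 ± 20.6) and Otc (61.2 ± 5.51) formed a run in which each overlapped with the next. Cdh1 (20.3 ± 5.22) and Sdsl (6.42 ± 0.822) were lowest, and each stood apart from the gene above it.

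Taken over both sets of mice, the urea cycle genes varied little between the VDS-F1 mice, and the genes of amino acid breakdown varied more. Over the 6 VDS-F1 mice the coefficient of variation of CPM was 4.96% for Cps1, 8.35% for Ass1, 9.0% for Otc and 9.03% for Asl. It was 12.8% for Sdsl, 18.3% for Gls2, 25.3% for Hal, 25.8% for Cdh1 and 27.7% for Sds, against a median of 12.2% over 7877 genes at 8 CPM or more. Within the 4 VDS-F1 mice with a recorded weight, Gls2 was at 6.12%, below Otc (7.15%), Ass1 (7.41%) and Asl (8.38%). Sdsl (13.6%), Hal (18.3%) and Sds (24.2%) stayed above them. Over all 6 VDD-F1 mice the coefficient was higher for each of the 9, from 6.88% for Cps1 to 42.9% for Hal. The share of all genes with this pattern was not counted, and each group holds mice with and without a recorded weight. In the mice with one, the coefficient was lower in VDD-F1 for Ass1 (5.35% against 7.41%), Sdsl (2.81% against 13.6%), Gls2 (6.07% against 6.12%), Hal (8.73% against 18.3%) and Cdh1 (15.7% against 23.7%). It was higher for Cps1, Otc, Asl and Sds. Over all 12 mice the ratio of the highest to the lowest CPM ran from 1.25 for Cps1 to 4.48 for Sds, where the median over the same 7877 genes was 1.62.

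**Figure D1:**
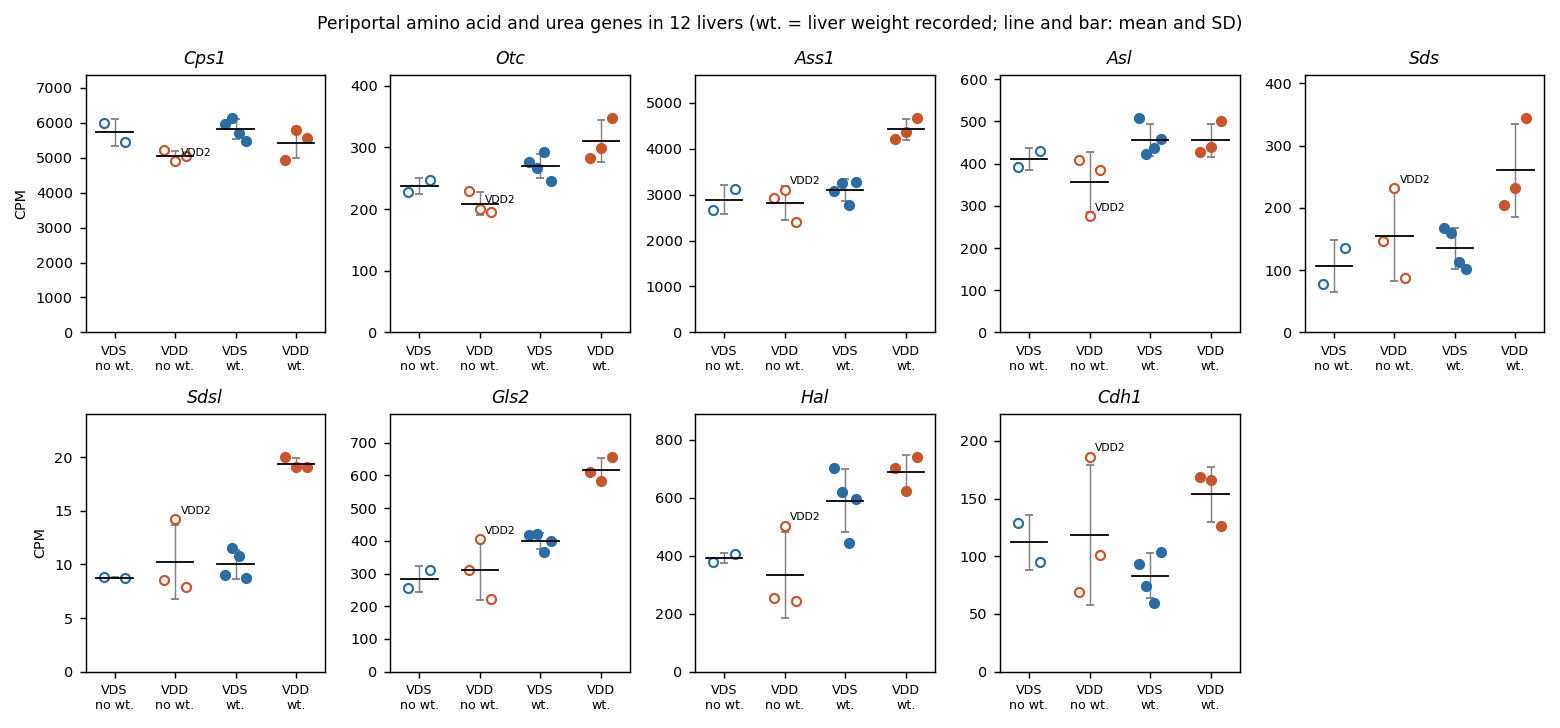
CPM of the 9 genes in each liver, with a panel per gene and the mice in 4 columns by maternal diet (VDS or VDD) and by liver weight recorded (wt., filled points) or not (no wt., open points). Lines and bars give the mean and SD; for Ass1, Sds, Sdsl, Gls2 and Cdh1 every VDD mouse with a recorded weight lies above every VDS mouse with one.

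The first comparison asked whether the livers of VDD-F1 and VDS-F1 mice differed over all 12 mice. None of the 9 genes passed an adjusted p of 0.05 by edgeR's quasi-likelihood test, against 0.0402% of all genes tested, and the count was also 0 by DESeq2, against 4.05% of all genes, and by voom, against 4.74%. The background by edgeR itself rested on single mice, with 0 to 420 of all genes called when 1 mouse was left out, against 5. At an unadjusted p under 0.05, 3 of the 9 were higher in VDD-F1 mice, against 9.55% of all genes. These were Sds, Sdsl and Cdh1. The median log2-fold change of the 9 was 0.26 and that of all genes 0.0041. The values within each set of mice follow further on.

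Sds encodes serine dehydratase, which turns serine into pyruvate and ammonia. In the VDD-F1 mice it stood at 86.7 CPM at the lowest, 218 at the median and 345 at the highest, and in the VDS-F1 mice at 77.1, 125 and 167 CPM. The groups overlapped, with 4 of the 6 VDD-F1 mice above every VDS-F1 mouse. Its log2-fold change was 0.73 ± 0.27 (SE, edgeR adjusted p = 0.221). Sdsl, the related gene beside it, had a median of 16.7 CPM in VDD-F1 mice (7.91 to 20.05) and 8.92 CPM in VDS-F1 mice (8.73 to 11.5), a log2-fold change of 0.63 ± 0.22 (adjusted p = 0.194). Again 4 of the 6 VDD-F1 mice lay above every VDS-F1 mouse and the other 2 lay below all of them. Cdh1 had a median of 146 CPM in VDD-F1 mice (69.2 to 186) and 94.5 CPM in VDS-F1 mice (59.9 to 129), a log2-fold change of 0.55 ± 0.23 (adjusted p = 0.261).

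None of the urea cycle genes passed an unadjusted p of 0.05 by edgeR in this comparison. Cps1 had a log2-fold change of -0.14 (95% interval -0.35 to 0.058), Asl of -0.12 (-0.38 to 0.15) and Ass1 of 0.26 (-0.082 to 0.59). Otc encodes ornithine transcarbamylase, and its log2-fold change was 0.00093 (-0.29 to 0.30). For Cps1 an exact permutation test of the mean log2 CPM over all ways to divide the mice 6 against 6 gave p = 0.0216 (two-sided, not adjusted over genes), where the edgeR test gave an unadjusted p of 0.149. Its lowest VDS-F1 mouse stood at 5449.5 CPM, and 4 of the 6 VDD-F1 mice lay below that, between 4908 and 5212 CPM. Gls2 had a log2-fold change of 0.36 (-0.14 to 0.87) and Hal of -0.036 (-0.62 to 0.55).

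**Figure D2:**
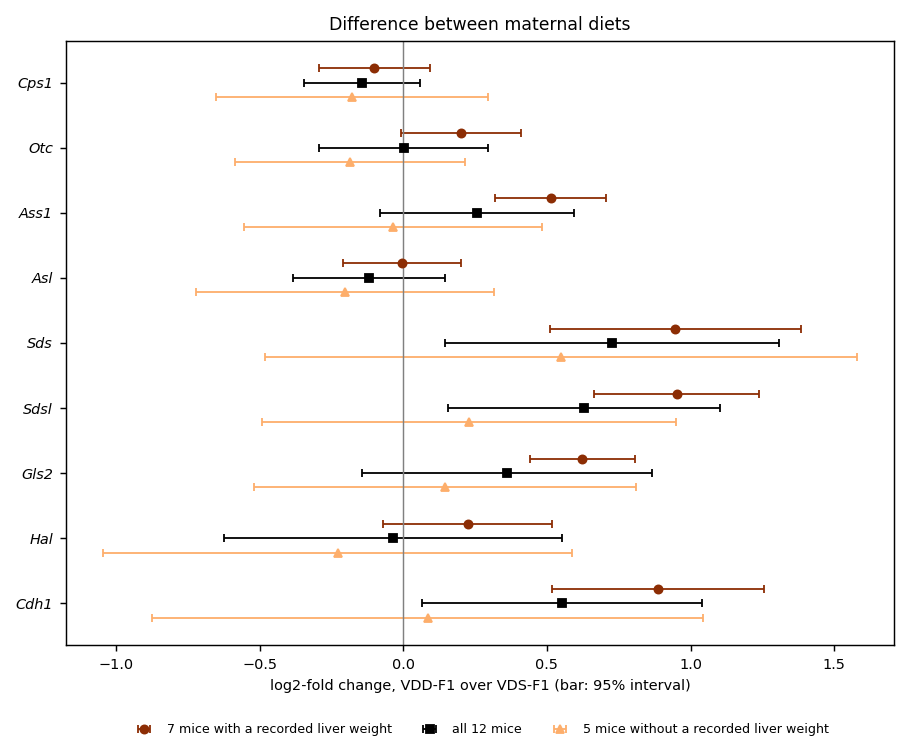
Log2-fold change of VDD-F1 over VDS-F1 mice for the 9 genes, fitted over all 12 mice (squares), over the 7 mice with a recorded liver weight (circles) and over the 5 without (triangles), with 95% intervals. The interval over the 7 mice lies above 0 for Ass1, Sds, Sdsl, Gls2 and Cdh1, and all 9 intervals over the 5 mice include 0.

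The second comparison was made within each set of mice. Among the 7 mice with a recorded liver weight, 5 of the 9 genes were higher in the 3 VDD-F1 than in the 4 VDS-F1 mice at an adjusted p under 0.05, against 5.87% of all genes called higher, and 0 were lower, against 5.11%. In the same 5 genes every VDD-F1 mouse lay above every VDS-F1 mouse, a pattern seen in 11.9% of all genes. None of the 5 had a log2-fold change above 1, the study's further threshold, which 4.33% of all genes passed in either direction. The median log2-fold change was 0.51 for the 9 genes and 0.0074 for all genes. The exact permutation test cannot go below p = 0.0286 with 3 against 4 mice, and each of the 5 genes reached that value. As the diets did not overlap in these 5 genes, this p adds little to that pattern.

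Ass1 was the 1 urea cycle enzyme among them. It stood at 4221, 4362 and 4683 CPM in the VDD-F1 mice and at 3084, 3264, 2783 and 3277 CPM in the VDS-F1 mice, 1.43-fold higher (log2-fold change 0.51 ± 0.089, adjusted p = 0.00356). The lowest VDD-F1 value lay well above the highest VDS-F1 value. The intervals of the other 3 enzymes included 0. Otc had a log2-fold change of 0.20 (95% interval -0.009 to 0.41), Asl, the argininosuccinate lyase that acts after Ass1, of -0.0029 (-0.21 to 0.20), and Cps1 of -0.10 (-0.29 to 0.092).

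Of the genes of amino acid breakdown, 3 of 4 rose in the VDD-F1 mice of this set. Gls2 encodes the liver-type glutaminase, which frees ammonia from glutamine beside the urea cycle. It stood at 609, 583 and 657 CPM in the VDD-F1 mice and at 417, 419.5, 366 and 399 CPM in the VDS-F1 mice, a log2-fold change of 0.62 ± 0.084 (adjusted p = 0.00077). Sds stood at 204, 233 and 345 CPM against 167, 159, 114 and 101 CPM (0.95 ± 0.20, adjusted p = 0.0107). The 3 VDD-F1 mice were spread widely, with VDD6 the highest of all 12 mice. Sdsl stood at 20.05, 19.1 and 19.1 CPM against 9.004, 11.5, 10.8 and 8.73 CPM (0.95 ± 0.13, adjusted p = 0.000886), and the 3 VDD-F1 mice lay close together. Hal, the histidase that begins the breakdown of histidine, stood at 701, 623 and 741 CPM against 703, 619, 443 and 596 CPM. Its groups overlapped, and its log2-fold change was 0.22 (95% interval -0.071 to 0.52).

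Cdh1 stood at 169, 166 and 126 CPM in the VDD-F1 mice of this set and at 93.7, 74.6, 59.9 and 104 CPM in the VDS-F1 mice (0.89 ± 0.17, adjusted p = 0.00612). Markers of cholangiocytes, the bile duct cells that also make E-cadherin, moved with it. The summed level of Krt19, Krt7, Epcam, Spp1, Sox9, Cftr and Muc1 was 59.4 to 73.2 CPM in the VDD-F1 mice and 28.3 to 44.8 CPM in the VDS-F1 mice of this set. Of the 6 of these markers that were tested, 2 rose (Spp1 and Epcam) and 0 fell, and none of the 7 stood at 0 in all mice. VDD2, which had the highest Cdh1 of all mice at 186 CPM, also had the highest sum at 119.5 CPM. The part of these cells in the Cdh1 result was not tested. The summed hepatocyte markers were likewise higher in the VDD-F1 mice of this set (104039 to 106644 CPM against 82458 to 90257 CPM), as were those of stellate cells (318 to 383 CPM against 268 to 315 CPM) and of lymphocytes (10.02 to 13.7 CPM against 8.73 to 9.16 CPM), with no overlap between the diets in these 3 sums. The hepatocyte and lymphocyte sums rest mostly on 1 gene each. Alb had a mean count of 1.15e+06 and the next of its list, Apob, 212952, and Ptprc had 157.5 and the next, Cd3e, 18.1. Of the 3 lymphocyte markers tested in these mice, 2 had a log2-fold change above 0 and 1, Cd3e (-0.36), below. The sums overlapped for Kupffer cells and macrophages (162 to 215 CPM against 212 to 276 CPM) and for endothelial cells (241 to 266 CPM against 249 to 291 CPM). Their part in the other results was not tested.

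Among the 5 mice without a recorded liver weight, none of the 9 genes passed an adjusted p of 0.05, as for 0% of all genes, nor did any by DESeq2 (0.271% of all genes) or voom (0%), and none had an unadjusted p under 0.05, against 3.77% of all genes. The median log2-fold change was -0.034 for the 9 genes and 0.010 for all genes. With 3 VDD-F1 and 2 VDS-F1 mice the intervals were wide. For Ass1 the log2-fold change was -0.034 (95% interval -0.55 to 0.48), for Gls2 0.14 (-0.52 to 0.81), for Sdsl 0.23 (-0.49 to 0.95), for Sds 0.55 (-0.48 to 1.58) and for Cdh1 0.084 (-0.87 to 1.04). These intervals held the value of the other set for Sds, Gls2 and Cdh1 and ended just below it for Ass1 and Sdsl. VDD2 stood above VDD1 and VDD3 in Ass1, Sds, Sdsl, Gls2, Hal and Cdh1 and below them in Cps1 and Asl. For Hal the 3 mice stood at 254, 504 and 242 CPM, for Sdsl at 8.58, 14.2 and 7.91 CPM and for Asl at 409.7, 276 and 385 CPM.

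Whether the diet effect differed between the sets was tested by the interaction of diet and set over all 12 mice. The difference was the log2-fold change with a recorded weight minus that without. It was above 0 for all 9 genes, against 6109 of the 12453 genes tested. Its median was 0.45 for the 9 and -0.0069 for all genes. The 9 genes come from the same 12 livers, so they do not count as 9 separate observations. None of the 9 passed an adjusted p of 0.05, against 0.0883% of all genes, nor did any by DESeq2 (1.11% of all genes) or voom (0.498%), and 3 were higher at an unadjusted p under 0.05, against 4.24% of all genes. These were Ass1 (0.55 ± 0.19, adjusted p = 0.399), Sdsl (0.72 ± 0.29, adjusted p = 0.502) and Otc (0.39 ± 0.17, adjusted p = 0.529). A diet effect that differed between the sets was thus not shown for any of the 9. Without VDD2, 3 genes passed, Sdsl (1.04, adjusted p = 0.0256), Hal (0.88, adjusted p = 0.0449) and Cdh1 (1.29, adjusted p = 0.0450), while 332 of all genes did. That fit rests on 2 VDD-F1 mice without a recorded weight.

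**Figure D3:**
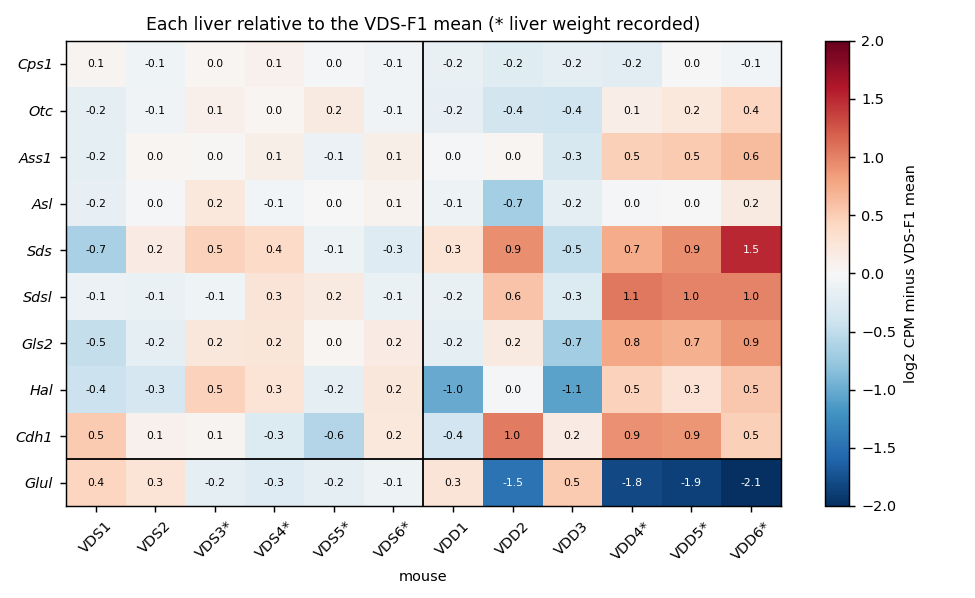
Log2 CPM of the 9 genes and of Glul in each liver minus the mean of the 6 VDS-F1 mice, with mice in columns and an asterisk for a recorded liver weight. VDD4 to VDD6 are high in Ass1, Sds, Sdsl, Gls2 and Cdh1 and low in Glul, and VDD2 shares the high Sds and Cdh1 and the low Glul.

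The third comparison set the 7 mice with a recorded liver weight against the 5 without, with diet in the model. Here 2 of the 9 genes were higher in the mice with a recorded weight at an adjusted p under 0.05, Gls2 and Hal, against 0.899% of all genes called higher. At an unadjusted p under 0.05, 7 of the 9 were higher, against 5.87% of all genes, and 0 were lower, against 7.99%. The median log2-fold change was 0.39 for the 9 genes and -0.011 for all genes. In none of the 9 did every mouse with a recorded weight lie above every mouse without, a pattern seen in 0.891% of all genes.

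Hal stood at 443 to 741 CPM, with a median of 623, in the mice with a recorded weight, and at 254, 504, 242, 379 and 404 CPM in those without. VDS5, at 443 CPM, was the 1 mouse with a recorded weight that lay within the range of the others. The log2-fold change was 0.83 ± 0.19 (adjusted p = 0.0339), and the exact permutation test over all divisions of the mice gave p = 0.00253, where the smallest it can give is 0.00126. Unlike the fit, the permutation test, here and for Gls2, holds no diet term. The call of Hal was lost in 10 of the 12 fits that left out 1 mouse, with an adjusted p of 0.0508 to 0.0863, and was kept without VDD2 and without VDS5. Gls2 stood at 366 to 657 CPM with a median of 419.5, against 310.1, 405, 221, 255 and 311 CPM, and VDD2 at 405 CPM was the 1 mouse of the second set within the range of the first. Its log2-fold change was 0.75 ± 0.14 (adjusted p = 0.0147, exact permutation p = 0.00884). The call of Gls2 was kept in all 12 fits that left out 1 mouse, with log2-fold changes of 0.63 to 0.86, and was lost with no diet term in the model (0.71, adjusted p = 0.0745).

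The other 5 genes that were higher at an unadjusted p under 0.05 were Otc (0.39 ± 0.098, adjusted p = 0.0584), Sdsl (0.58 ± 0.17, 0.117), Ass1 (0.39 ± 0.12, 0.140), Asl (0.26 ± 0.11, 0.289) and Sds (0.56 ± 0.24, 0.314). Otc stood at 246 to 349 CPM with a recorded weight and at 229.9, 200.4, 196, 228 and 247 CPM without one, and the sets overlapped only where VDS6 of the first met VDS2 of the second. The log2-fold change of Cps1 was 0.067 (95% interval -0.12 to 0.26) and that of Cdh1 -0.017 (-0.52 to 0.49). Haemoglobin genes were lower in the mice with a recorded weight. The summed level of Hba-a1, Hba-a2, Hbb-bs, Hbb-bt, S100a8 and S100a9 was 124 to 341 CPM in them and 442 to 1234 CPM in the others, and its part in the differences between the sets was not tested.

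**Figure D4:**
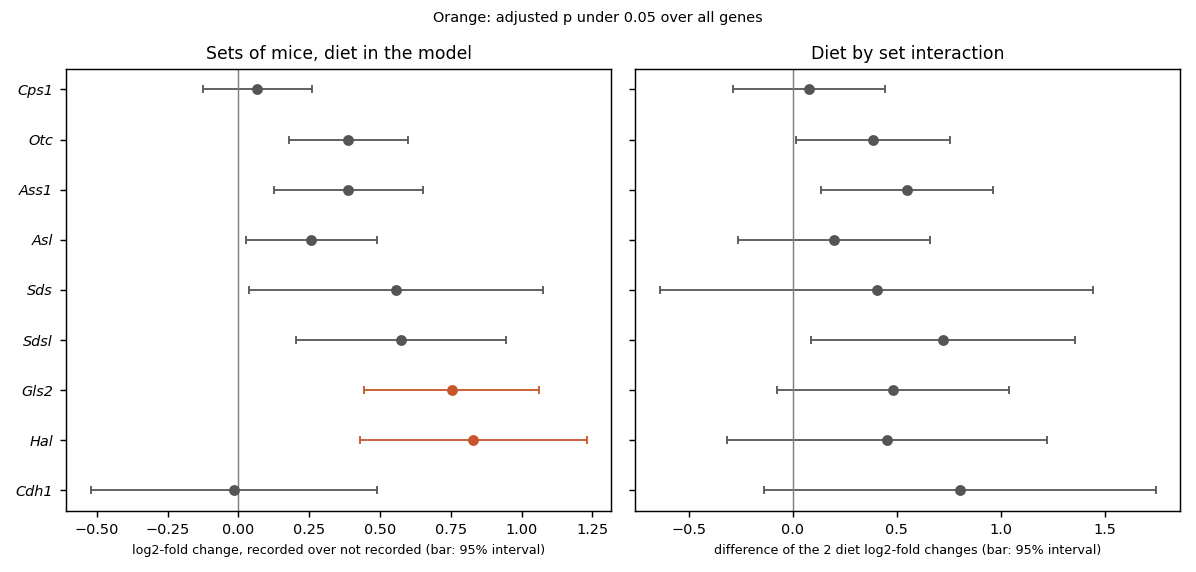
On the left, log2-fold change of the 7 mice with over the 5 mice without a recorded liver weight for the 9 genes, with diet in the model; on the right, the interaction of diet and set, both with 95% intervals. Gls2 and Hal, in orange on the left, have an adjusted p under 0.05 over all genes, and no gene on the right does.

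Glul, the glutamine synthetase gene of the hepatocytes at the central vein, fell in the VDD-F1 mice with a recorded weight, where it stood at 313, 298 and 261 CPM against 969, 918, 967 and 1014 CPM in the VDS-F1 mice (log2-fold change -1.73 ± 0.092, adjusted p = 8.59e-07). Over all 12 mice its log2-fold change was -0.69 (adjusted p = 0.456), and between the sets it was -1.29 (adjusted p = 0.0499), where the exact permutation test, which holds no diet term, gave a difference of -0.92 (p = 0.125). The value between the sets covers a smaller and a larger difference. Mean Glul with and without a recorded weight was 967 and 1399 CPM in VDS-F1 mice and 291 and 1090 CPM in VDD-F1 mice. Its diet by set interaction was -1.37 ± 0.50 (adjusted p = 0.413). Nags makes the activator that Cps1 needs, and stood at 52.7 to 82.0 CPM in the 12 mice, with a log2-fold change of 0.079 (adjusted p = 0.679) in the mice with a recorded weight.

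Genes that serve the urea cycle or the handling of amino acids and ammonia were counted by list. Of 12 genes of urea cycle support tested in the mice with a recorded weight, 2 rose and 4 fell in VDD-F1 mice. This list includes Glul and Nags, described above, and Glul is among the 4 that fell. Got1, an aspartate aminotransferase, rose (log2-fold change 0.83, adjusted p = 0.0026), and Car5a, a mitochondrial carbonic anhydrase, fell (-0.76, adjusted p = 0.00272). Of 30 genes of amino acid catabolism, 7 rose and 3 fell, and Tdo2, which opens the tryptophan ring, rose by 0.46 (adjusted p = 0.0223) while Ido2 (-0.43, adjusted p = 0.0051) and Kmo (-0.30, adjusted p = 0.0271) of the same pathway fell. Of 19 amino acid transporters, 5 rose and 2 fell. Slc1a5 (2.26, adjusted p = 0.0164) and Slc7a1 (1.15, adjusted p = 0.0387), carriers of neutral and of basic amino acids, rose, and Slc43a1 fell (-0.74, adjusted p = 0.0143). The background for these counts is 5.87% of all genes called higher and 5.11% called lower. Over all 12 mice none of the genes of these 3 lists passed an adjusted p of 0.05.

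Genes of both zones were counted in the same way. Of 12 other periportal genes, 3 rose and 0 fell in VDD-F1 mice with a recorded weight. Aldh1b1 rose by 1.31 on the log2 scale (adjusted p = 5.71e-05), Etnppl, which breaks down phosphoethanolamine, by 1.18 (adjusted p = 0.00129) and Hsd17b13 by 0.47 (adjusted p = 0.00233). Of 12 pericentral genes, 0 rose and 7 fell, among them Cyp1a2 (-1.48, adjusted p = 1.54e-06), Cyp2e1 (-1.26, adjusted p = 0.000129), Gulo (-0.53, adjusted p = 0.00182) and Lect2 (-0.54, adjusted p = 0.0319). Cyp1a2, a cytochrome P450 of drug metabolism, was the 1 gene of these lists that passed over all 12 mice (-1.35, adjusted p = 0.0269). Of 18 regulators of amino acid catabolism, 0 rose and 5 fell, among them the transcription factors Hnf4a (-0.46, adjusted p = 0.0199) and Nr1h4 (-0.62, adjusted p = 0.0264) and the glucagon receptor Gcgr (-0.42, adjusted p = 0.0112).

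Between the sets of mice, 4 of the 30 genes of amino acid catabolism were higher with a recorded weight and 0 lower, against 0.899% and 1.56% of all genes. Amdhd1, which acts after Hal in the breakdown of histidine, was higher by 0.51 on the log2 scale (adjusted p = 0.0121), and Tdo2 by 0.61 (adjusted p = 0.0263). Of the other periportal genes 2 of 12 were higher and 1 was lower. Etnppl was higher by 1.30 (adjusted p = 0.00336), and Apoa4, an apolipoprotein, fell by 3.30 (adjusted p = 8.48e-06). Of the 12 pericentral genes 0 were higher and 2 lower, Gulo (-0.74, adjusted p = 0.000605) and Lect2 (-0.58, adjusted p = 0.032). No transporter of 19 and no regulator of 18 passed.

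The genes were also set beside each other and beside all genes tested after the mean of the mice of the same diet and set had been taken from each value. The 12 points of each correlation share libraries and depth, so the values are a description. Over the 36 pairs of the 9 genes, Pearson's r had a median of 0.20 and ran from -0.88 to 0.89, so that the genes did not vary as 1 block within the groups. Gls2 with Sds (0.89) and Gls2 with Ass1 (0.88) lay at the upper end, and Sdsl with Asl (-0.88) at the lower. The genes most alike were Etnk2, an ethanolamine kinase, for Otc (0.96), Wfdc17 for Sds (0.95), Fxyd5 for Sdsl (0.97), and Marco, a scavenger receptor of macrophages, for Gls2 (0.97). For Hal it was the keratin Krt23 (0.97), for Cdh1 Galnt15 (0.98), for Cps1 Homer1 (0.96), for Ass1 the complement factor Cfp (0.93) and for Asl Pbld2 (0.96). The next 2 in each order, with r of 0.92 to 0.97, were Rnf20 and C87436 for Cps1, Egfl7 and Uox for Otc, Csf1r and Ocrl for Ass1, Hsp90ab1 and Cyp2d40 for Asl, Ncf1 and Marco for Sds, AB124611 and Cyp2a4 for Sdsl, Apol9a and C1qc for Gls2, Kntc1 and Ly6a for Hal, and Prkar2b and Dhrs9 for Cdh1. These genes were picked as the highest r over all genes tested, so high values come with the search. Without VDD2, r was 0.86 for Cyp2d40, 0.87 for Cyp2a4 and 0.90 to 0.97 for the others. Some stood at low levels, with means of 0.77 CPM for Kntc1, 1.03 for Prkar2b and 1.64 for Krt23. The pairs among the 9 genes were not recomputed without VDD2.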

How the data were processed

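Liver RNA-seq libraries of 6 VDD-F1 and 6 VDS-F1 male mice were used, 1 per mouse. The authors removed ribosomal RNA, and after adapter trimming they ran STAR against mm10 (GRCm38, named in the submitters' processing notes). They deposited its raw fragment counts for each gene, without normalization. Fragments that map to several places are not counted. Reverse-strand counts were taken, as the forward total was larger in 0 libraries. Symbols were taken from GENCODE M21, where the authors used M15, and matched for 52403 of 52636 genes. Counts were normalized by TMM and tested with edgeR 4.0.16 in R 4.3.3 (quasi-likelihood, legacy form), where a gene needed a mean of 12 counts or more, with Benjamini-Hochberg adjustment over all genes tested. The same filter within each set of mice left 12369 genes in the mice with a recorded liver weight and 12541 in those without. Adjusted p-values are from these fits unless another test is named, and 95% intervals use their SE and degrees of freedom. A gene was called at an adjusted p under 0.05, and the study also asks for a log2-fold change past 1. The study's methods name DESeq2. Log2 CPM used a prior count of 2. Exact permutation tests were two-sided.

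Alternatives were DESeq2 1.42.0, limma 3.58.1 (voom with sample quality weights), edgeR's newer form, DESeq2 size factors, other filters, counts without strand, each set of mice alone, the set as a covariate, no diet term, a replicate block and each mouse left out. The alternatives for the fits within a set of mice were chosen after seeing the data. Upstream sequences came from RefSeq (GRCm38.p6). The methods were tested on simulated data.

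The members and lists were chosen with earlier results of these data known. 1 member and a few other genes are not reported here. The genes named are the 9 members, the 2 genes of each other list with the smallest p in the diet comparison and the 2 with the smallest p in the comparison of sets, Glul, Nags and, for likeness, the 3 genes with the highest Pearson r to each member. Genes outside that rule are named only as parts of a summed marker level or as genes that overlap a member, with no test of their own. Tf of the hepatocyte markers was not matched by symbol. Python 3.11.15, pandas 2.3.3, SciPy 1.17.1 and matplotlib 3.10.9 were used for summaries and figures.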

Additional observations from a re-analysis of the deposited data

How the results depend on the processing

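The count of members called between the diets over all 12 mice was 0 under every alternative but 1, where the 7 mice with a recorded weight gave 5. It was 0 in each of the 12 fits that left out 1 mouse, while the count over all genes was 420 without VDD1, 142 without VDD3, 12 without VDS2, 8 without VDD2, 6 without VDS1, 1 without VDS6 and 0 without any 1 of the other 6. The replicate numbers of the labels did not pair the mice, since same-numbered mice had correlations of -0.0762 to 0.103 and 0 of 6 correlated best with their own number, and the fit with a replicate block gave 0 members and 19 of all genes. Over all genes the calls depended on the tool. They came to 5 by edgeR, 504 by DESeq2, 590 by voom, 20 by edgeR's newer form, 85 with no filter and 28 with the set as a covariate.

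The comparison of sets called 2 members by edgeR, 5 by DESeq2, 5 with no filter beyond 1 count, 1 (Hal) with no diet term, and 1 to 2 when 1 mouse was left out. All genes called came to 306, 581, 555, 174 and 143 to 498. The interaction called 0 members, 1 with no filter (Cdh1) and 0 to 3 when 1 mouse was left out, against 11 of all genes, 138 by DESeq2, 62 by voom, 17 by the newer form and 368 with no filter. The count of 5 members in the mice with a recorded weight was found in all alternatives run, including each mouse left out, while the count over all genes was 1358 by edgeR and 819 (without VDD5) to 1703 (DESeq2) in the alternatives.

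These values turned sign. The diet value of Otc was -0.0031 by DESeq2, -0.0032 with its size factors, -0.0098 with no filter, -0.0086 at a total count of 12, -0.0013 without strand, -0.027 with the replicate block, -0.18 in the 5 mice and -0.027 in the permutation test. Ass1 was at -0.034 in the 5 mice. Hal was at 0.035 with the covariate and 0.22 in the 7 mice. Cdh1 between the sets was at 0.11 by voom, and in the 5 mice voom gave -0.27 for Cdh1 and -0.035 for Gls2, and the difference of mean log2 CPM in the permutation test was -0.024 for Cdh1, which is not among the values counted at the end.

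When 1 mouse was left out, the diet values ran from -0.10 to 0.067 for Otc and -0.17 to 0.11 for Hal, Cdh1 between the sets from -0.19 to 0.16, the interaction of Sds from -0.064 to 0.81, and Asl in the 7 mice from -0.073 to 0.052. In the 5 mice the ranges were -0.13 to 0.084 for Ass1, -0.092 to 0.40 for Sdsl, -0.093 to 0.35 for Gls2 and -0.41 to 0.36 for Cdh1. Of 774 values compared, 702 kept their direction and side of the threshold, 21 came to pass it, 11 no longer did and 40 turned sign. The cause of these changes was not tested. With 3 against 2 mice the exact permutation test cannot go below p = 0.1.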

Other observations

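Some marker genes of other cell types differed between the diets in the mice with a recorded liver weight, and over all 12 mice none of the marker genes named here passed an adjusted p of 0.05 by edgeR's quasi-likelihood test. In these mice 5.87% of all genes tested were called higher and 5.11% lower, and the counts of the short marker lists are given beside that background. Among stellate cell markers, 2 of 6 rose in VDD-F1 mice with a recorded weight, Pdgfrb (log2-fold change 0.92, adjusted p = 0.0268) and Dcn (0.58, adjusted p = 0.00626), and 0 fell. Among markers of Kupffer cells and macrophages, 1 of 6 rose, Lyz2 (0.78, adjusted p = 0.000933), and 3 fell, among them Clec4f (-0.80, adjusted p = 0.0142) and Cd5l (-0.64, adjusted p = 0.0153), while Adgre1 was at -0.034 (adjusted p = 0.934). Of 6 endothelial markers, 0 rose and 1 fell, Stab2 (-0.48, adjusted p = 0.00684), a count that does not set the list apart from all genes. Of the others, Clec4g was at -0.30 (adjusted p = 0.0766) and Pecam1 at 0.29 (adjusted p = 0.128), and the median of the 6 was -0.029, with 3 above 0 and 3 below. Of the cholangiocyte markers Spp1 rose by 0.99 (adjusted p = 0.00727) and Epcam by 1.32 (adjusted p = 0.0133), while Sox9 (0.59, adjusted p = 0.11) and Krt7 (0.62, adjusted p = 0.43) did not pass. Alb rose by 0.36 (adjusted p = 0.0144), and Apoa1 (0.29, adjusted p = 0.166) and Fgb (0.22, adjusted p = 0.132) did not pass. None of the 3 lymphocyte markers tested passed, with Ptprc at 0.47 (adjusted p = 0.095).

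Between the sets of mice, with diet in the model, the 4 haemoglobin genes fell in the mice with a recorded weight, by 1.51 on the log2 scale for Hba-a1 (adjusted p = 0.0161) and by 1.70 for Hbb-bs (adjusted p = 0.00671). Kdr (0.35, adjusted p = 0.0897), Pecam1 (0.27, adjusted p = 0.207), Hgf (-0.33, adjusted p = 0.386), Cd3e (-0.24, adjusted p = 0.929), Rhbg, an ammonia channel (-0.77, adjusted p = 0.404), Slc1a4 (-0.88, adjusted p = 0.248) and Ppargc1a (-0.95, adjusted p = 0.157) did not pass. In the 6 livers of each diet, no value of the 9 genes, Glul or Nags stood far enough from the others to be called an outlier by Dixon's test, in 22 groups of values checked, where chance gives about 1 in 20. Each group holds mice with and without a recorded weight. A liver that stood apart only from its own set, as VDD2 did in Glul (392 CPM against 1309 and 1568 CPM), could not be found this way.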
